A study of Rattus norvegicus with 5 samples.

Results

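The insulin-like growth factor (IGF) axis was examined in primary rat hepatic stellate cells through 8 genes: the binding protein genes Igfbp2, Igfbp3, Igfbp4, Igfbp5, Igfbp6 and Igfbp7, the ligand gene Igf1 and the receptor gene Igf1r. They were chosen by name, and every array probe that the platform annotation assigns to one of these symbols was used. Of the 8 genes 7 have such a probe, out of 13337 genes named on the array, with 2 probes for Igfbp4 and 1 for each of the others. No probe carries the symbol Igf1, which was therefore not analysed here. The cells came from male Wistar rats of 10 weeks, and the RNA was hybridised to 5 Illumina bead arrays. On 1 array the RNA is labelled as that of freshly isolated cells with no treatment. The other 4 hold cells at day 3, of which 2 were given vehicle and 2 were given calcitriol (1,25(OH)2D3), the hormonal form of vitamin D, at 100 nM for 24 h. The labels do not say whether replicates were separate cultures or animals, so a p-value here reflects array-to-array spread that may be no more than technical.

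IGF1 signals through the receptor tyrosine kinase IGF1R to the PI3K-AKT and RAS-MAPK branches, and in the blood and tissues most of it is held by the IGF binding proteins. These secreted proteins bind the ligand, prolong its life and, in most settings, limit its access to the receptor, until proteases cleave them and set the ligand free. In the liver hepatocytes are the main source of circulating IGF1, whereas several binding proteins are made by the nonparenchymal cells, and IGF1 is a growth and survival signal for cultured stellate cells. IGFBP3 is a known vitamin D induced gene in human prostate cancer cells.

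Promoters are shown for Igfbp3, the member with that link to vitamin D, and for Igfbp7, since both were detected on every array and the windows differ in their core elements. The sequences are the 250 bases before the annotated start, from RefSeq (GRCr8), read in the direction of the gene. Capitals mark a TATA box (TATAAA or TATATA, read in the direction of the gene and searched in the last 50 bases) or a GC box (GGGCGG on either strand). The Igfbp3 window is chr14:86277945-86278194 on the minus strand and the Igfbp7 window is chr14:31091486-31091735 on the plus strand.
Igfbp3: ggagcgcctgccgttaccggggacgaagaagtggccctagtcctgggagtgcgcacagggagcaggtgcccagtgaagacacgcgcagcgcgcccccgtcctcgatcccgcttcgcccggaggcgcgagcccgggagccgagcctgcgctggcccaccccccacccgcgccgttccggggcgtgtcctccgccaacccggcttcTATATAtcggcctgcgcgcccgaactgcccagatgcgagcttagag
Igfbp7: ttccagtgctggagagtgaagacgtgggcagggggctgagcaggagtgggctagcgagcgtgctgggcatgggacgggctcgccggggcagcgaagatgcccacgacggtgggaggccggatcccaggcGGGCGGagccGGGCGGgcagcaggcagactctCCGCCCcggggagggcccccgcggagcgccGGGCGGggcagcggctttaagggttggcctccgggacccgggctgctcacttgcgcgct
The Igfbp3 window holds 1 TATA box and no GC box, and the Igfbp7 window holds 4 GC boxes and no TATA box. Among all 8 members 2 windows hold a TATA box (Igfbp3 and Igfbp4) and 3 hold a GC box (Igfbp2, Igfbp7 and Igf1r), where 3.27% and 30.5% of 33469 promoter windows do. The vitamin D receptor with its partner RXR binds pairs of half-sites (AGGTCA or its variant GGTTCA, or the mixed forms AGTTCA as well as GGGTCA) repeated in the same direction 3 bases apart. Neither such a pair nor a single half-site was found on either strand in any of the 8 windows, where 0.0926% of all windows hold the pair and 39.1% hold at least 1 half-site. These matches are letters in a short window and not binding sites. The GC content of the members' windows ran from 46.8% for Igf1 to 79.6% for Igf1r, against a median of 51.2% over all windows. In gene order Igfbp2 and Igfbp5 are direct protein-coding neighbours on chromosome 9, and Igfbp3 lies next to Igfbp1 on chromosome 14.

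The deposited table gives for each probe and array the mean intensity over its beads, the standard error of that mean, and a detection p-value against negative control beads. A probe was called detected at a detection p under 0.01. Mean signal over all probes was lowest on vehicle array 2 (608) and highest on the array labelled freshly isolated (855), and 8316 to 9112 of 22523 probes were detected on an array. Cyp24a1, the enzyme that inactivates calcitriol, was detected with calcitriol on both arrays and with vehicle on none. It was also detected on the array labelled freshly isolated and untreated (intensity 382). The normalized log2 level of Cyp24a1 was 8.09 on this array, nearer to calcitriol (8.81 and 8.90) than to vehicle (5.12 and 4.84). This array is named by its label throughout. Between calcitriol and this array 0 of 9737 tested probes passed an adjusted p under 0.05 in limma, against 149 between vehicle and this array. Whether this array holds untreated cells was not tested. Of 15 stellate cell markers with a probe 11 were detected on all 5 arrays, among them Des, Dcn, Lum, Reln and Col1a1. Gfap, Rgs5 and Ngfr were not detected on any. The mean normalized log2 level of the 15 was 9.23 on the array labelled freshly isolated, 9.33 and 9.31 with vehicle and 9.19 and 9.26 with calcitriol. Of 16 macrophage markers 15 were detected on all 5 arrays, with a summed raw intensity, which also follows the overall signal of an array, of 118851 on the array labelled freshly isolated, 97300.2 and 81039 on vehicle arrays 1 and 2 and 98988 and 111442 on calcitriol arrays 1 and 2. Their mean normalized log2 level was instead lowest on the array labelled freshly isolated, at 11.26, with 11.54 and 11.46 for vehicle and 11.39 and 11.38 for calcitriol. That is above the level of the stellate list on every array, but levels of different probes do not give the share of a cell type. Of 12 sinusoidal endothelial markers 6 were detected on all 5, with a mean normalized log2 level of 7.31 on the array labelled freshly isolated, 7.90 and 7.84 with vehicle and 7.73 and 7.80 with calcitriol. Of 15 hepatocyte markers Alb and 10 more were not detected on any array, while 3 were detected on all 5. The mean normalized log2 level of these 15 was 6.15 on the array labelled freshly isolated, 6.18 and 6.20 with vehicle and 6.10 and 6.03 with calcitriol. Of 12 lymphocyte markers 4 were detected on all 5 arrays and 5 on none. With calcitriol against vehicle 1 of 16 tested macrophage markers and 1 of 4 hepatocyte markers were lower at an adjusted p under 0.05 in limma. Of 7 lymphocyte markers 1 was higher. No stellate or endothelial marker passed, where 1.83% of all tested probes did. The median log2 change was -0.04 for macrophage, -0.26 for hepatocyte, 0.24 for lymphocyte, -0.11 for stellate and -0.10 for endothelial markers. The arrays measure the mixed RNA, so that fewer cells of a type and less RNA per cell cannot be told apart. The part of RNA from other cell types in the values below was not tested.

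The binding protein genes Igfbp3, Igfbp6 and Igfbp7 and the receptor gene Igf1r were detected on all 5 arrays, and none of them differed between calcitriol and vehicle by more than the spread between arrays. Estimated changes with calcitriol ran from 1.11-fold higher for Igfbp3 to 1.25-fold lower for Igf1r. Igfbp2, Igfbp4 and Igfbp5 were not detected on any array.

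**Figure D1:**
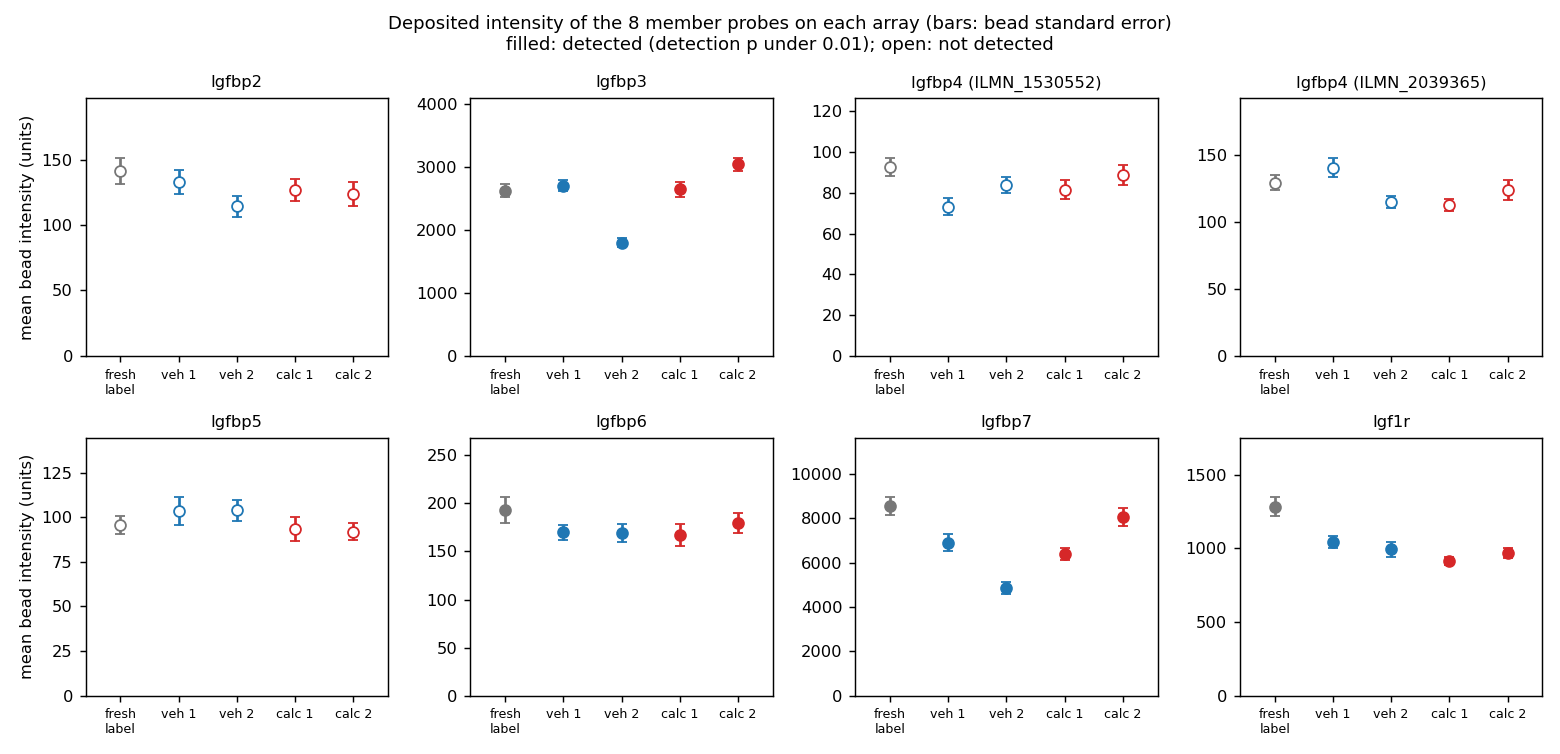
Deposited mean bead intensity (linear axis from 0) of the 8 member probes on each of the 5 arrays, with the bead standard error as bars; grey is the array labelled freshly isolated, blue vehicle and red calcitriol, and open symbols are not detected. Igfbp3, Igfbp6, Igfbp7 and Igf1r are detected on every array, and Igfbp3 and Igfbp7 have their lowest intensity on vehicle array 2, the array with the lowest mean signal.

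IGFBP3 is the main carrier of IGF1 in the circulation and also acts on cells without the ligand. The deposited intensity of Igfbp3 was 2629.6 ± 110.2 (standard error over beads) on the array labelled freshly isolated, 2703 ± 87.9 and 1799.5 ± 75.1 on vehicle arrays 1 and 2, and 2653 ± 118 and 3045 ± 108 on calcitriol arrays 1 and 2. Vehicle array 2 stood below the other 4, by more than the bead errors, as did its mean signal. After background correction and quantile normalization, which put the arrays on a common scale, the log2 level was 11.10 on the array labelled freshly isolated, 11.35 and 11.13 with vehicle and 11.40 and 11.39 with calcitriol. On that scale the calcitriol arrays were the highest and lay within 0.011 of each other, vehicle array 1 came just below them, and the array labelled freshly isolated was the lowest. The log2 change with calcitriol was 0.15 ± 0.14 (SE, n = 2 per group; adjusted p = 0.651 in limma), with a 95% interval of 0.872 to 1.41 in fold. The gap between the vehicle arrays, 0.22, was larger than that change.

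IGFBP7, a matrix-bound protein with low affinity for IGF1 that is made in quantity by stromal and endothelial cells, is often counted as a relative of the classical family. Igfbp7 had an intensity of 8543 ± 389 on the array labelled freshly isolated, 6891 ± 379 and 4857 ± 270.0 with vehicle, and 6375 ± 276 and 8066 ± 399 with calcitriol. Normalized log2 levels were 12.84 on the array labelled freshly isolated, 12.72 and 12.61 with vehicle and 12.67 and 12.81 with calcitriol. The vehicle and calcitriol ranges overlap, and the whole range over the 5 arrays was 0.23, the smallest of the 4 detected members. The log2 change with calcitriol was 0.08 ± 0.14 (SE, n = 2 per group; adjusted p = 0.816 in limma), a 95% interval of 0.838 to 1.33 in fold.

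IGFBP6 is known for binding IGF2 in preference to IGF1. Igfbp6 was dim, at 193 ± 13.2 on the array labelled freshly isolated, 169.7 ± 7.87 and 169 ± 9.46 with vehicle, and 167 ± 11.3 and 179.8 ± 10.2 with calcitriol, with detection p-values from 0.00242 to 0.00485. Normalized log2 levels were 6.66 on the array labelled freshly isolated, 6.40 and 6.85 with vehicle and 6.53 and 6.61 with calcitriol, close to the lowest detected levels of 5.90 to 6.23 on these arrays. Both calcitriol values lay between the vehicle values, whose gap of 0.45 was the largest between replicates of the 4 members. The vehicle intensities were almost equal before normalization, so that this gap appears with the adjustment for the lower signal of vehicle array 2. The log2 change with calcitriol was -0.05 ± 0.18 (SE, n = 2 per group; adjusted p = 0.921 in limma), a 95% interval of 0.703 to 1.33 in fold, and fold changes of dim probes are understated on this scale.

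Igf1r encodes the receptor. Its intensity was 1285 ± 61.8 on the array labelled freshly isolated, 1043 ± 39.1 and 995 ± 50.9 with vehicle, and 917 ± 26.3 and 969 ± 33.6 with calcitriol. Normalized log2 levels were 10.02 on the array labelled freshly isolated, 9.88 and 10.23 with vehicle and 9.79 and 9.67 with calcitriol. Both calcitriol arrays were below the other 3 arrays on either scale. The log2 change was -0.32 ± 0.17 (SE, n = 2 per group; adjusted p = 0.414 in limma), a 95% interval of 0.601 to 1.06 in fold. The gap between the vehicle arrays, 0.35, was again larger than the change.

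**Figure D2:**
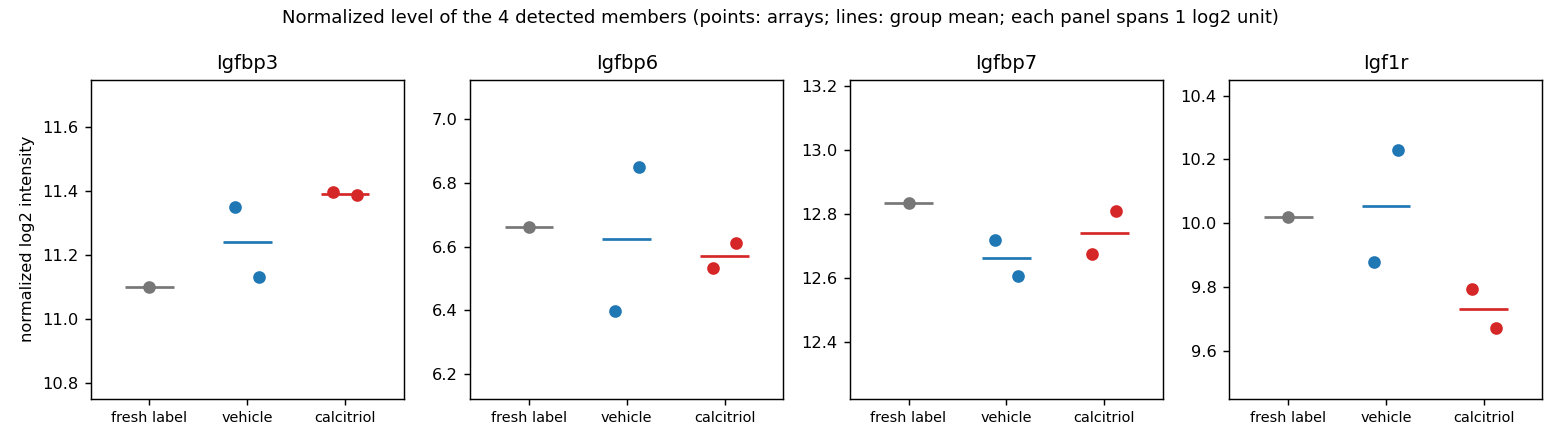
Normalized log2 intensity of the 4 detected members in each group; points are arrays, lines are group means, and each panel spans 1 log2 unit. The calcitriol arrays lie above both vehicle arrays for Igfbp3 (11.39 and 11.40 against 11.13 and 11.35), below both for Igf1r (9.67 and 9.79 against 9.88 and 10.23), and overlap with them for Igfbp6 and Igfbp7.

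With calcitriol against vehicle 0 of 4 tested members passed an adjusted p under 0.05 in limma, and 0 had an unadjusted p under 0.05, where 1.83% and 15.8% of 9737 tested probes did. Groups did not overlap for 2 of the 4, Igfbp3 higher and Igf1r lower, where 23.3% of all tested probes were higher and 24.4% lower without overlap, 47.7% in all. The members' share is close to that background. The median log2 change of the 4 members was 0.01, against 0.00336 over 7051 named genes. The widest 95% limits of any member were log2 changes of -0.73 and 0.50, so that on this scale a 2-fold change lies outside the intervals of Igfbp3, Igfbp7 and Igf1r. For Igfbp6, whose dim signal understates fold changes, the interval does not bound the true change in the same way. Smaller changes lie within these intervals, and a p that misses the threshold does not show that levels were equal. The intervals rest on a spread between arrays that may be no more than technical, so they do not bound the change between cultures or animals.

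**Figure D3:**
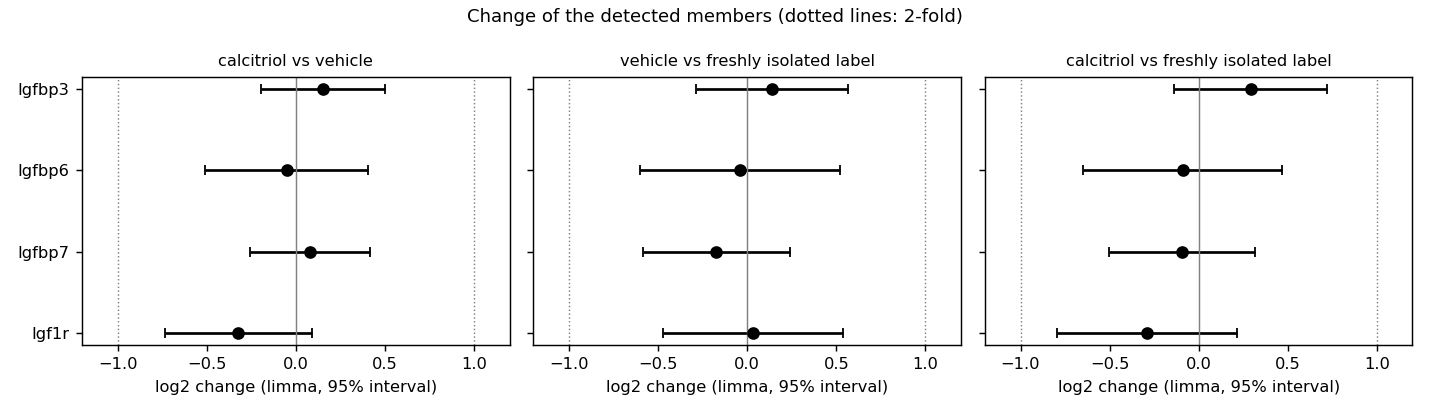
Log2 change of the 4 detected members in the 3 comparisons, with 95% intervals from limma; dotted lines mark a 2-fold change. Every interval spans 0 and lies between the dotted lines, the widest limits being -0.79 and 0.72 in the right panel, where calcitriol is set against the array labelled freshly isolated.

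Between the vehicle arrays and the array labelled freshly isolated, a contrast of culture time if the label is right, 0 of the 4 members passed in limma and 0 had an unadjusted p below 0.05, where 1.53% and 13.9% of probes did. This comparison shares the vehicle arrays with the one above and sets 2 arrays against 1 that has no replicate. Log2 changes were 0.14 ± 0.17 for Igfbp3, -0.04 ± 0.23 for Igfbp6, -0.17 ± 0.17 for Igfbp7 and 0.03 ± 0.20 for Igf1r (SE). Igfbp7 was higher on the array labelled freshly isolated than on both vehicle arrays, Igfbp3 was lower there than on both, and for Igfbp6 and Igf1r that array lay between the vehicle arrays. Adjusted p ran from 0.708 to 0.958. Between the same arrays the sinusoidal endothelial markers had a median log2 change of 0.60 (1 of 11 tested higher, 0 lower) and the macrophage markers of 0.08 (1 of 16 higher, 0 lower). The hepatocyte markers had one of 0.10 (1 of 4 higher, 0 lower) and the lymphocyte markers of -0.09 (0 of 7 higher, 1 lower). The part of these cell types in these values and in that of Stc1 below was not tested. Between the calcitriol arrays and that array 0 members passed and 0 had an unadjusted p under 0.05, with 0% and 6.67% of probes, and log2 changes were 0.29 ± 0.17 for Igfbp3, -0.09 ± 0.23 for Igfbp6, -0.09 ± 0.17 for Igfbp7 and -0.29 ± 0.20 for Igf1r. Over all 5 arrays the groups stood in the order calcitriol, vehicle, labelled freshly isolated for Igfbp3, and labelled freshly isolated, calcitriol, vehicle for Igfbp7. For Igf1r the order was vehicle, labelled freshly isolated, calcitriol, and for Igfbp6 labelled freshly isolated, vehicle, calcitriol. No neighbours in these orders differed beyond the spread. With each array scaled to its median in place of quantile normalization, vehicle was below the array labelled freshly isolated for Igfbp3 (log2 change -0.13) and Igf1r (-0.22), and calcitriol above vehicle for Igfbp6 (0.073).

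The remaining binding protein genes did not reach a detection p under 0.01 on any array. IGFBP2 is a binding protein that hepatocytes secrete and IGFBP5 one that binds to extracellular matrix. Igfbp2 had intensities of 142 on the array labelled freshly isolated, 133 and 114 with vehicle and 127 and 124 with calcitriol, with detection p-values from 0.0230 to 0.0945. Its detection p was under 0.05 on 4 of the 5 arrays. Igfbp5 had 95.6 on the array labelled freshly isolated, 103 and 104 with vehicle and 93.5 and 92.0 with calcitriol, with detection p-values from 0.184 to 0.444. Its values lie within the range of the negative control beads, so these arrays set no order between the groups.

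IGFBP4, the substrate of the protease PAPP-A, is represented by a pair of probes. ILMN_2039365 had intensities of 129 on the array labelled freshly isolated, 140.3 and 114 with vehicle and 112 and 124 with calcitriol, and its detection p was under 0.05 on 3 of the 5 arrays. ILMN_1530552 had intensities of 92.6 on the array labelled freshly isolated, 73.1 and 83.8 with vehicle and 81.5 and 88.7 with calcitriol, with no detection p under 0.05. Neither probe detected Igfbp4 at the threshold used. With detection at a p under 0.05 on at least 1 array in place of 0.01, Igfbp2 and the former Igfbp4 probe entered the test, with log2 changes with calcitriol of 0.06 ± 0.15 (adjusted p = 0.895 in limma) and -0.20 ± 0.18 (adjusted p = 0.678 in limma).

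The named genes whose profile over the 5 arrays lay closest to a member were found by the Euclidean distance between mean-centred log2 profiles over 7050 other genes, which describes these arrays only. For Igf1r they were Hdac1 (distance 0.04 log2 units, against a median of 0.55), Chn1 and Pskh1. In each the calcitriol arrays are below the vehicle arrays, an order that the choice by closeness to Igf1r largely sets. For Igfbp3 they were Ldhb (0.03, median 0.47), Exosc9 and Mdh1. For Igfbp6 they were Zfyve27, Ltbp4 and Stoml2, and for Igfbp7 they were Arhgap11a, Mrps14 and Unc50. Between members the smallest distance was 0.32 log2 units, for Igf1r and Igfbp6, whose medians over all other genes were 0.55 and 0.48. For Igfbp3 and Igfbp7 it was 0.35, against medians of 0.47 and 0.42. The largest was 0.70, for Igf1r and Igfbp3, above the medians of both.

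A wider list of the pathway held 69 genes with a probe, of which 43 were tested. With calcitriol 1 of the 43 fell and 0 rose in limma, where 0.657% and 1.17% of all probes did, and the median log2 change was -0.01, against 0.00336 over all named genes. The gene that fell was Plau, the urokinase that makes plasmin, a protease known to cleave binding proteins. Plau had normalized log2 levels of 10.58 on the array labelled freshly isolated, 11.59 and 11.45 with vehicle and 9.53 and 9.48 with calcitriol. It was 4.05-fold lower with calcitriol (log2 change -2.02 ± 0.13, SE, n = 2 per group; adjusted p = 0.00497 in limma). Its groups are far apart. Without calcitriol array 1 or 2 the log2 change was -2.04 and -1.98, and Plau missed the threshold in both fits. Without vehicle array 1 or 2 it was -1.96 and -2.09. Each of these fits leaves 1 array in a group.

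Of the other 11 tested genes for proteases of binding proteins and their inhibitors none passed with calcitriol, where 1.83% of all tested probes did. Mmp14 had a log2 change of -0.36 ± 0.13, Mmp7 of 0.37 ± 0.15 and Adamts1 of 0.34 ± 0.14, with adjusted p from 0.271 to 0.335 in limma. Pappa, whose protease cleaves IGFBP4, and Htra1, whose protease degrades IGFBP5, were detected and had log2 changes of -0.04 ± 0.15 and -0.20 ± 0.19.

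Among ligands and other receptors 1 of 7 genes was detected, Igf2r, the receptor that clears IGF2 and sorts lysosomal enzymes, with a log2 change with calcitriol of -0.43 ± 0.13 (adjusted p = 0.195 in limma). Igf2, the insulin receptor gene Insr and the growth hormone receptor gene Ghr were not detected. Of the other binding proteins Kazald1, an IGFBP-related secreted protein, had -0.67 ± 0.18 (adjusted p = 0.166 in limma), Esm1 had 0.22 ± 0.18, and Igfbp1, Igfbpl1 and Igfals, which encodes the acid-labile subunit of the circulating complex, were not detected. In the CCN family of matrix proteins, which share an IGFBP-like domain, 0 of 4 tested genes passed, where 1.83% of all tested probes did. Ccn1 was at -0.26 ± 0.16, Ccn2 at -0.21 ± 0.13, Ccn3 at 0.23 ± 0.22 and Ccn4 at 0.06 ± 0.18.

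Downstream of the receptor 0 of 5 substrates and adaptors, 0 of 15 genes of the PI3K-AKT-FOXO branch and 0 of 4 of the RAS-MAPK branch passed with calcitriol in limma. Over all tested probes 1.83% did. An unadjusted p under 0.05 was reached by 1, 1 and 0 of these genes, where 15.8% of all tested probes reached it. Ptpn1, a phosphatase that dephosphorylates the insulin and IGF1 receptors, was closest to the threshold, with a log2 change of 0.73 ± 0.13 (adjusted p = 0.0670 in limma). Ptpn11 had 0.23 ± 0.13, the adaptor Shc1 0.11 ± 0.13 and Crkl -0.10 ± 0.14. The substrates Irs1 and Irs2 were not detected on any array. In the PI3K branch the catalytic subunit gene Pik3cb had -0.74 ± 0.19 (adjusted p = 0.148 in limma), the mTOR inhibitor gene Ddit4 -0.48 ± 0.21, Mtor -0.24 ± 0.13 and Sesn1 0.18 ± 0.15. In the RAS-MAPK branch Map2k2, Braf, Map2k1 and Nras had log2 changes of 0.12 ± 0.13, -0.09 ± 0.16, 0.04 ± 0.13 and -0.03 ± 0.22.

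Against the array labelled freshly isolated 1 of the 43 list genes was lower with vehicle and 0 were higher in limma, where 1.05% and 0.483% of probes were. It was Stc1, which encodes a stanniocalcin, a secreted inhibitor of PAPP-A, with normalized log2 levels of 7.76 on the array labelled freshly isolated, 6.28 and 6.06 with vehicle and 6.29 and 6.42 with calcitriol. All 4 cultured arrays were thus below that 1 array. Stc1 was 3.00-fold lower with vehicle (log2 change -1.59 ± 0.18, SE; adjusted p = 0.0243 in limma) and reached detection on vehicle array 1 alone of the vehicle pair. Without background correction the log2 change was -0.97 (adjusted p = 0.00300 in limma), and without vehicle array 2 it was -1.49 (adjusted p = 0.0687). Without calcitriol array 1 or 2 it was -1.59 and -1.57, and Stc1 missed the threshold in both fits. Ccn4 had a log2 change of -1.01 ± 0.22 (adjusted p = 0.121), Plau of 0.94 ± 0.16 (adjusted p = 0.0726) and Ptpn1 of -0.75 ± 0.16 (adjusted p = 0.112 in limma). For Plau and Ptpn1 these run opposite to the changes with calcitriol against vehicle (-2.02 and 0.73). Both comparisons use the same vehicle arrays with opposite sign, which by itself favours opposite directions, so no reversal is read from this. With calcitriol against the array labelled freshly isolated the log2 changes were -0.95 ± 0.22 for Ccn4, -1.08 ± 0.16 for Plau and -0.02 ± 0.16 for Ptpn1. The lowest and highest of the 43 were Stc1 at -1.40 ± 0.18 (adjusted p = 0.236 in limma) and Adamts1 at 1.10 ± 0.17 (adjusted p = 0.344 in limma). Whether any of these differences belongs to culture time was not tested. Setting calcitriol against that 1 array, 0 of 43 passed in limma and 7 had an unadjusted p under 0.05, where 0% and 6.67% of probes did.

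**Figure D4:**
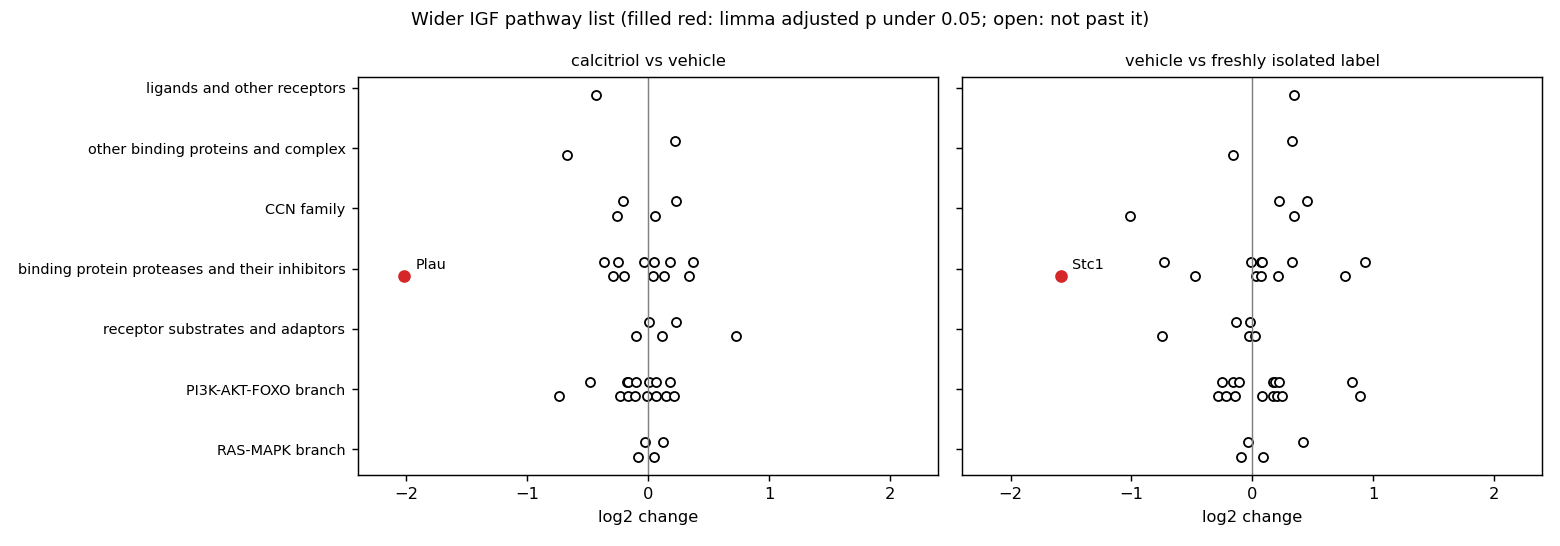
Log2 change of the tested genes of the wider IGF pathway list, by role, with calcitriol against vehicle (left) and with vehicle against the array labelled freshly isolated (right); each point is a gene, filled red where the limma adjusted p is under 0.05. Plau at -2.02 on the left and Stc1 at -1.59 on the right are the points past the threshold, and both belong to the protease and inhibitor group.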

How the data were processed

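Per the labels, biotin-labelled cRNA of 5 samples was hybridised to Illumina bead arrays of 1 chip, and GenomeStudio 2011.1 is named in the submitters' processing notes. The deposited non-normalized table holds the mean bead intensity, its bead standard error (a signal in intensity units), the count of beads and a detection p-value per probe and array. The deposited intensities are all above 0 and show no scaling. The authors' value table holds quantile-normalized linear intensities without background subtraction, as read from the values (column medians 115.7 to 115.9, ranks those of the signal), and served as an alternative. No alignment applies, and no source used here gives a build for the probes.

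Background was corrected with limma 3.58.1 (R 4.3.3; neqc, offset 16, then quantile normalization and log2), and probes with a detection p under 0.01 on at least 1 array were tested (9737 of 22523). A model with 1 mean per group over all 5 arrays (lmFit, eBayes; 2 residual degrees of freedom, prior 3.65) gave moderated two-sided tests, adjusted by Benjamini-Hochberg over all 9737. The code was tested on simulated data. A gene with several tested probes is counted by the brightest. Where groups share replicate numbers, nothing in the labels pairs them, and the correlation of same-numbered deviations was -0.11. Group and position on the chip cannot be told apart.

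The 8 members and the pathway and marker lists were chosen with earlier results of these data known. Genes are named if members, if past the threshold in the pathway list, or among the 4 smallest p-values of a sublist, and up to 3 nearest profiles per member. Pappa, Htra1, the undetected genes and the stellate and hepatocyte markers were named after their values were seen. Symbols come from the platform annotation (13793 of 22523 probes, 8730 unnamed here), and promoters from RefSeq GRCr8, matched by symbol for 8 of 8 members.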

Additional observations from a re-analysis of the deposited data

How the results depend on the processing

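No member passed the threshold in limma under any of the alternatives run, and of 172 alternative values of the 12 member changes 166 kept their direction. With a variance trend 1 of the 4 members had an unadjusted p under 0.05 in limma with calcitriol, where 1809 of 9737 probes did. With 1 replicate left out the change with calcitriol ran from -0.50 to -0.15 for Igf1r and from 0.04 to 0.26 for Igfbp3. With scaling to the array median, which moved the median of all probes by 0.17 with calcitriol and by -0.18 with vehicle against the array labelled freshly isolated, Igfbp6 turned to 0.073 with calcitriol, and Igfbp3 to -0.13 and Igf1r to -0.22 with vehicle. With 1 replicate left out, Igfbp6 ran from -0.27 to 0.18 with calcitriol and from -0.27 to 0.18 with vehicle, and Igf1r from -0.14 to 0.21 with vehicle, where leaving out vehicle array 1 or 2 turned the sign. The cause was not tested. Probes past the threshold with calcitriol numbered 178, and 488 without background correction and with the authors' value table, 298 (237 higher, 61 lower) with scaling to the array median, 359 with an offset of 50, 325 with detection on all 5 arrays, 684 with a variance trend, and 0 to 75 with 1 replicate left out. With vehicle against the array labelled freshly isolated they numbered 149, and under the same settings 401, 401, 276 (56 higher, 220 lower), 307, 282 and 506, 98 with the replicate number as a block, and 0 to 60 with 1 replicate left out. Against that array with calcitriol they were 30, 30, 22 and 51 without background correction, with the authors' table, with median scaling and with a variance trend. Pathway list genes past the threshold with calcitriol were 3, 3, 2, 2, 2 and 5 under those settings in the first order given, and 0 to 1 with 1 replicate left out. With vehicle they were 5, 5, 2, 4, 3 and 5, and 0 to 1 with 1 replicate left out. With calcitriol against the same array they were 3, 3, 1 and 3. The fall of Plau passed under each alternative other than leaving out calcitriol array 1 or 2, where its log2 change was -2.04 and -1.98 and 0 probes of any gene passed, and Ptpn1 passed with it under 6 alternatives. The replicate block changed no call among members or list genes (129 probes with calcitriol), and a crossed pairing, added after seeing the data, gave 204 and 154. Precision is limited by the number of arrays and, for Igfbp6, by signal near background.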
